A study of Mus musculus with 20 samples.

Results

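The 42 genes described here carry out DNA replication and cell division. They were listed by name as replication genes and mitotic genes, and the list was made with earlier results of these data known. Of the 42 genes, 41 had at least 1 probe set on the array and all 41 passed the filter on low signals, against 12343 genes tested in all. They form a replication class of 18 genes and a mitosis class of 24 genes, of which 23 were measured. The cyclin gene Ccnb1 had no probe set paired with it in the array's gene table and was not analysed here. The series compared 4 groups of mouse samples, each sample on 1 Affymetrix array. CDS tumors (6 arrays) are CIC-DUX4 sarcomas, which grew under the skin of Balb/c nude mice, hosts without a thymus, after embryonic mesenchymal cells carrying the retroviral fusion gene had been transplanted. The fusion joins the transcriptional repressor CIC to part of DUX4, which activates transcription. The 6 arrays of ES tumors hold mouse Ewing sarcomas, also grown under the skin of Balb/c nude mice. The labels do not give their driving gene. Embryonic mesenchymal cells, called eMC here and labelled as primary cells, were cultured in Iscove's modified DMEM with 15% FBS. They were collected 48 h after spinofection with the retrovirus pMYs-CIC-DUX4-IRES-GFP (eMC CIC-DUX4, 4 arrays) or pMYs-IRES-GFP (eMC empty, 4 arrays). The tumors were untreated, and nude mice keep macrophages and blood vessels that can enter a tumor. The labels give neither an age of the animals nor a sorting of the transduced cells. Whether separate cultures underlie the eMC arrays is not stated, so that p-values measure only the spread between these samples.

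As background, a cell copies its DNA once per division cycle. Origins are licensed when Cdc6 and Cdt1 load the Mcm2 to Mcm7 helicase, which becomes active with Cdc45 and the GINS subunits Gins1 and Gins2. Pcna is the sliding clamp of the polymerases, Rrm1 and Rrm2 form ribonucleotide reductase, Tyms makes thymidylate, and E2f1 and E2f2 are transcription factors of the entry into S phase. In mitosis Cdk1 with A and B type cyclins drives entry, Plk1 and the Aurora kinases build the spindle, and Bub1, Bub1b, Mad2l1 and Ttk hold back division until chromosomes are attached. Cdc20 and Ube2c then direct the anaphase-promoting complex to destroy cyclins. Many genes of both sets are transcribed only at certain stages of the cycle, so their RNA in a bulk sample depends on the share of dividing cells. Fewer cells of a type and less RNA per cell cannot be told apart in bulk samples.

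The promoters of both classes were examined for the elements known from genes of the cell cycle. The members are such genes, so the shares below are a description and no independent support for the classes. RefSeq promoter windows of 300 bases (250 before and 50 after the start, build GRCm38.p6) matched 35 of the 42 genes, 15 of the replication and 20 of the mitosis class. The element known as CHR, TTTGAA on either strand, occurred in the windows of 14 of the 20 mitosis genes (70.0%) and 3 of the 15 replication genes. It occurred in 20.2% of all 27025 genes with a window. Of the mitosis genes, Aurka, Bub1b, Cenpa, Cenpf, Kif23, Plk1 and Ttk held it only after the start site. The CCAAT box, CCAAT on either strand, occurred in 17 of 20 mitosis genes (85.0%) and 10 of 15 replication genes (66.7%), against 41.1% of all genes. The E2F sites TTTCCCGC, TTTGGCGC, TTTCGCGC and TTTGCCGC, which can overlap each other on opposite strands, occurred in 7 of 15 replication genes (46.7%) and 1 of 20 mitosis genes (5.0%). They occurred in 2.6% of all genes. These are matches of letters in windows of equal length and not measured binding sites. The stretches below lie before the start site of genes to which the expression results refer. Capitals mark the CHR, CCAAT or E2F letters on either strand, so that TTCAAA and ATTGG are CHR and CCAAT read on the other strand.
Cdc20 (chr4:118437344-118437406, - strand): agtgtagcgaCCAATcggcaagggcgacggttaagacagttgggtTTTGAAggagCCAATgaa
Kif11 (chr19:37376327-37376378, + strand): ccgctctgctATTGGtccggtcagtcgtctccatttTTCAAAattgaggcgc
Aurka (chr2:172370575-172370631, - strand): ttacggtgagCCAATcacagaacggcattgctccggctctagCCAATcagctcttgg
Ube2c (chr2:164769691-164769915, + strand): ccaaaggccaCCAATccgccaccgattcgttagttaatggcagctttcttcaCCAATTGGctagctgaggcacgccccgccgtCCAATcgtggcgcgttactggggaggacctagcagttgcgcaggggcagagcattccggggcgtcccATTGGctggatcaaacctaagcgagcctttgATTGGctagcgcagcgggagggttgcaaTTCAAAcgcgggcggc
Mki67 (chr7:135716462-135716577, - strand): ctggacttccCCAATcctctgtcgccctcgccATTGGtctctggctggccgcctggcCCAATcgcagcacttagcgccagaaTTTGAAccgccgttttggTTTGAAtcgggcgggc
These 5 are mitosis genes, and all but Aurka hold the CHR letters in the stretch shown. The next 3 are replication genes, and each holds at least 1 of the E2F sites.
Mcm5 (chr8:75109346-75109501, + strand): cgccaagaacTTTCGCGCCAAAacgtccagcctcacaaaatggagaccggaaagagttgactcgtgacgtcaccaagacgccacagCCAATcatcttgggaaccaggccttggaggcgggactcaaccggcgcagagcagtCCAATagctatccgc
Mcm6 (chr1:128359706-128359825, - strand): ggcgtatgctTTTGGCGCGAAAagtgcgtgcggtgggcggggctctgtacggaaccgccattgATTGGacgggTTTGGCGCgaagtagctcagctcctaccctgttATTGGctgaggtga
Cdc6 (chr11:98908003-98908030, + strand): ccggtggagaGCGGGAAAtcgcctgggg
In the Mcm5 and Mcm6 stretches the first run of capitals is a pair of overlapping E2F sites on opposite strands.

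The deposited values are log2 signals whose distributions differ between arrays, and this bears on every member. The trimmed mean of the linear signals was between 500.1 and 500.3 in all arrays, but the upper quartile of the log2 signal ran from 4.10 to 6.99 in eMC empty and from 8.54 to 8.95 in eMC CIC-DUX4. It ran from 4.84 to 8.93 in CDS tumors and from 7.54 to 8.65 in ES tumors. Each array but eMC CIC-DUX4 6 has a dip, the lowest density between its dim and its bright probe sets. A signal below the dip is hard to tell from background. Of the members, 8 of 18 in the replication class and 9 of 23 in the mitosis class were above the dip in all 19 arrays that have one. CDS tumor 5 and eMC empty 4 and 5 had a dip above 7, and 9 replication and 9 mitosis members were above it in CDS tumor 5. The median signal was above 5 in eMC CIC-DUX4 5, eMC CIC-DUX4 6 and CDS tumor 2. Fold changes are therefore given as deposited and after quantile normalization, which gives all arrays 1 distribution. Calls required an adjusted p under 0.05 together with a difference of 1 or more on the log2 scale, up or down. The 3′ probe sets of Actb exceeded its 5′ ones, which grows as RNA degrades, by 0.80 ± 0.36 (log2, SD, n = 6) in CDS tumors. This excess was 0.25 ± 0.05 in ES tumors (n = 6). With 4 arrays each, it was 0.22 ± 0.02 for eMC CIC-DUX4 and 0.17 ± 0.03 for eMC empty. Etv1, Etv4, Etv5, Spry4 and Dusp6, genes that CIC represses, were above the dip in all CDS tumors, and all but Etv4 were so in all ES tumors and in all eMC CIC-DUX4 arrays that have a dip. By limma all 5 were higher in CDS than in ES tumors, with a median difference of 4.30 (quantile 4.74). All 10 mesenchymal markers were above the dip in every eMC CIC-DUX4 array that has one. In eMC empty 5 of the 10 were so in every array, in ES tumors 5 and in CDS tumors 4. The dips ran from 2.99 to 4.28 in eMC CIC-DUX4 and from 5.32 to 8.18 in eMC empty. In eMC CIC-DUX4 6 of 7 keratinocyte markers were also above the dip in every array that has one. Of 8 Ewing sarcoma markers only Fli1 was above the dip in all ES tumors, and Fli1 was so in all CDS tumors too.

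CDS tumors against ES tumors compared sarcomas of different type in the same kind of host. The spindle genes Kif20a, Aurka and Kif11, the checkpoint genes Bub1, Bub1b and Mad2l1 and the anaphase genes Cdc20 and Ube2c fell in CDS tumors. Mki67, Top2a and Cdk1 did not pass the test, and the 2 probe sets of Ccna2 gave different calls. By limma, 11 of the 41 members fell and 0 rose, 10 of 23 in the mitosis class and 1 of 18 in the replication class. Of all genes, 9.58% were called lower and 11.2% higher. After quantile normalization 15 members were called lower, among them all 11, and 0 higher, against 16.2% and 16.9% of all genes. At an unadjusted p under 0.05 by limma, 19 members were lower and 1 higher as deposited, against 17.5% and 20.7% of all genes. After quantile normalization 22 were lower and 1 higher, against 25.1% and 24.8% of all genes. The median difference over the mitosis class was -1.504 (quantile -1.20) and over the replication class -0.58 (quantile -0.40), against 0.02 (quantile -0.03) over all genes. The count of 11 became 5 without ES tumor 41, 6 without ES tumor 51 and 7 without ES tumor 49. It was 10 without CDS tumor 5.

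**Figure D1:**
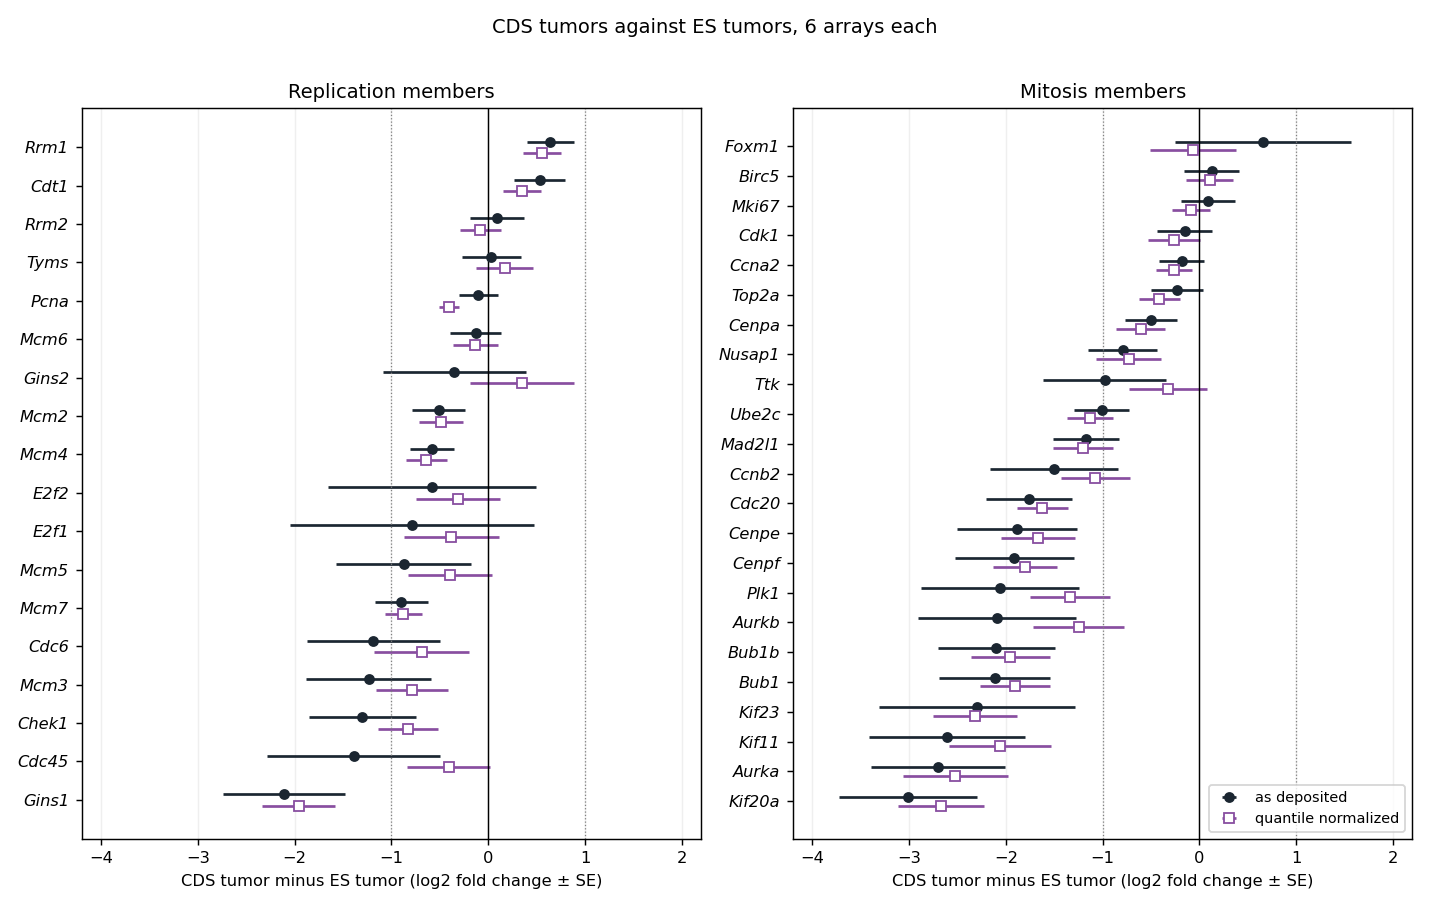
Log2 fold change of each member in CDS tumors minus ES tumors (horizontal axis, ± SE, 6 arrays in each group), as deposited (filled circles) and after quantile normalization (open squares), for 18 replication and 23 mitosis members. Dotted lines mark a log2 fold change of 1 in either direction. Kif20a is farthest to the left at -3.01, and Mki67, Cdk1, Ccna2, Rrm2 and Tyms lie near 0 on both scales.

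Motor proteins and mitotic kinases showed the largest differences. Kif20a encodes a kinesin of the central spindle and of cytokinesis. Its log2 signal in CDS tumors was 4.99 at the lowest, 8.09 at the median and 9.20 at the highest. In ES tumors it was 9.43, 10.77 and 11.25, so that the groups did not overlap. The difference was -3.01 ± 0.71 (SE, limma adjusted p = 0.00638), and -2.67 after quantile normalization. Aurka, the Aurora kinase of the spindle poles, ran from 5.68 over a median of 9.49 to 10.30 in CDS tumors and from 9.60 over 11.70 to 12.68 in ES tumors. The groups overlapped through ES tumor 46, the lowest of its group, and the difference was -2.70 ± 0.69 (limma adjusted p = 0.0106, quantile -2.52). Kif11, the motor that pushes spindle poles apart, differed by -2.61 ± 0.81 (limma adjusted p = 0.0282, quantile -2.06). Its call was lost without CDS tumor 6 (adjusted p = 0.0505 by limma) and without ES tumors 41, 47 or 51 (0.0593 to 0.0742). With the mean of its probe sets it differed by -1.66 (adjusted p = 0.181 by limma), also without a call. Its dimmer probe set was above the dip in 2 CDS and 3 ES tumors. A dimmer probe set of Aurkb was called lower (-2.25, limma adjusted p = 0.0384), where its brightest was not. Plk1 (-2.06), Aurkb (-2.09) and Kif23 (-2.29), genes of spindle assembly and cytokinesis, missed the threshold as deposited and were called lower after quantile normalization (-1.34, -1.25 and -2.32). Kif23 was above the dip in 1 of 6 CDS tumors and 4 of 6 ES tumors.

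The genes of the spindle checkpoint and of the complex it restrains formed the next group. Cdc20, the activator of the anaphase-promoting complex, ran from 8.05 over a median of 10.56 to 11.32 in CDS tumors. In ES tumors it ran from 11.40 over 12.01 to 12.89, and the groups did not overlap. The difference was -1.76 ± 0.45 (limma adjusted p = 0.00981) as deposited and -1.62 after quantile normalization. Bub1b, a checkpoint protein that binds Cdc20, ran from 5.84 over 9.40 to 9.85 in CDS tumors and from 9.89 over 11.12 to 11.98 in ES tumors. All 6 ES tumors were above all CDS tumors, with a difference of -2.10 (quantile -1.95). The checkpoint kinase Bub1 differed by -2.12 (quantile -1.91), a call that the mean of its probe sets ended (-1.78, limma adjusted p = 0.0825), and Mad2l1 by -1.17 (quantile -1.20). The dimmer probe set of Bub1 was above the dip in 2 CDS and 4 ES tumors. Ube2c, the ubiquitin-conjugating enzyme of the complex, differed by -1.01 (quantile -1.13), a size just past the fold threshold, and its call was lost without CDS tumor 2, 3, 4 or 5 or ES tumor 41 or 49 (-0.99 to -0.89). Mad2l1 and Ube2c were above the dip in all tumors, so that their differences do not rest on dim signals. The Mad2l1 call was lost without ES tumor 41 or 51 (limma adjusted p = 0.055 and 0.0505), and the Bub1b call without ES tumor 41 (0.0531). Ttk, another checkpoint kinase, did not pass the test (-0.98, quantile -0.33).

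Kinetochore proteins differed among themselves. Cenpf, a large protein of the kinetochore, ran from 5.75 over a median of 9.80 to 10.19 in CDS tumors and from 10.44 over 11.17 to 11.63 in ES tumors. The difference was -1.91 (quantile -1.80), and no CDS tumor reached the lowest ES tumor. Cenpe, a kinesin that carries chromosomes to the spindle equator, differed by -1.88 (quantile -1.67). Cenpf had dimmer probe sets, each above the dip in 1 CDS and 1 ES tumor. With the mean of all its probe sets Cenpf differed by -0.39, and this call was lost. It was also lost without ES tumor 41, 47, 48, 49 or 51 (limma adjusted p = 0.0548 to 0.074), and the Cenpe call without ES tumor 46, 47, 48, 49 or 51 (0.0505 to 0.0761). Cenpa, the histone of the centromere, differed by -0.50 (quantile -0.61) and Birc5, a subunit of the chromosomal passenger complex, by 0.12 (quantile 0.10), and neither was called. As deposited, CDS tumor 5 was the lowest CDS tumor for Kif20a, Aurka, Bub1, Bub1b, Cdc20, Cenpe, Cenpf, Mad2l1, Ube2c and Gins1. Of the members called lower on that scale only Kif11 was lowest elsewhere, in CDS tumor 6. Without CDS tumor 5, 10 of the 11 members remained called lower, and 13 members were called lower after quantile normalization.

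**Figure D2:**
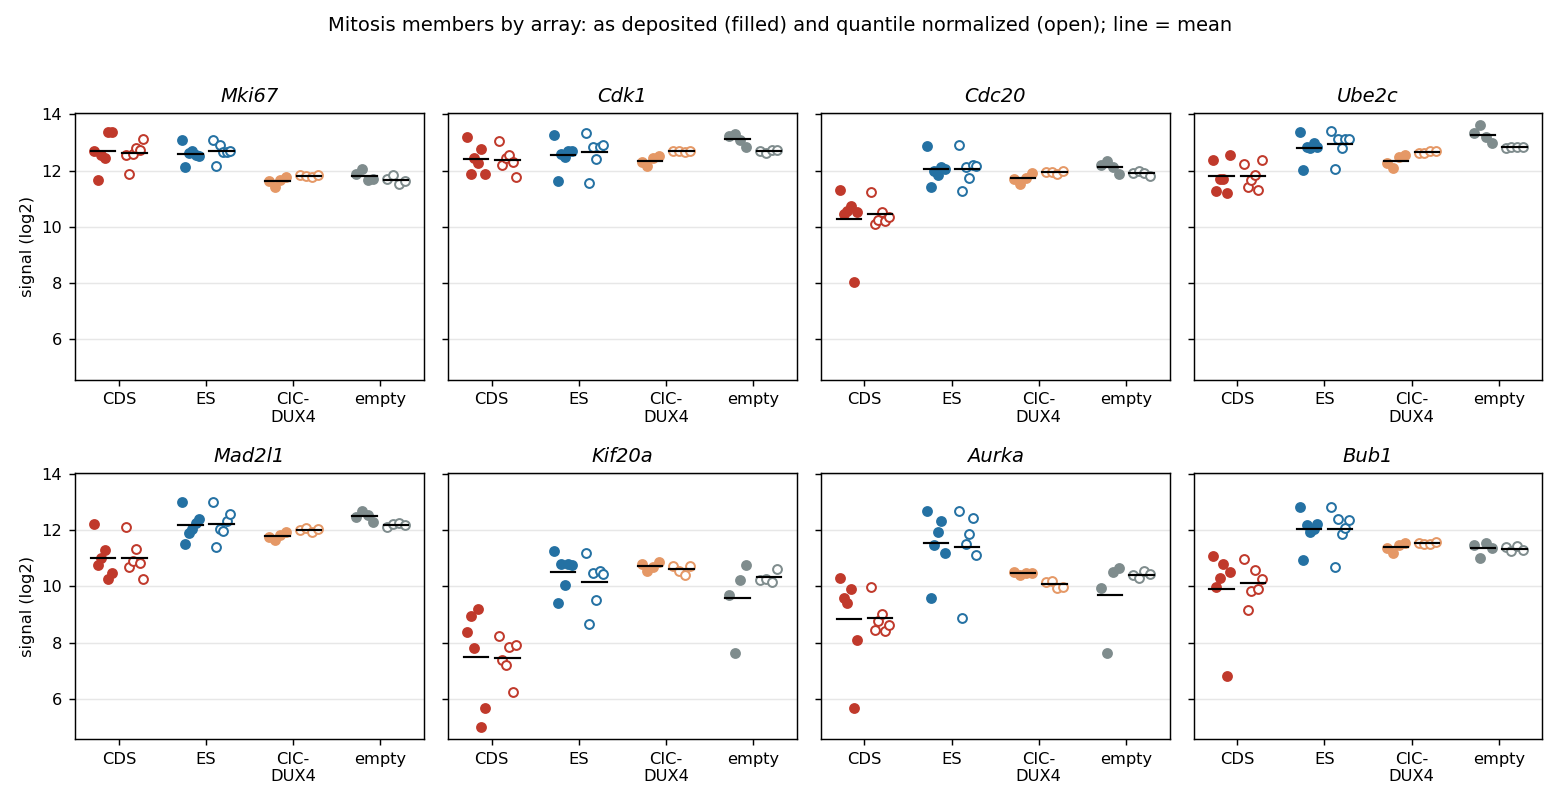
Log2 signal (vertical axis) of 8 mitosis members in every array of CDS tumors, ES tumors, eMC CIC-DUX4 and eMC empty (horizontal axis), as deposited (filled points) and after quantile normalization (open points), with the group mean as a line. For Cdc20 and Kif20a all 6 CDS tumors lie below all 6 ES tumors as deposited. For Mki67 and Cdk1 the tumor groups overlap.

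The common proliferation markers behaved otherwise. Mki67, the Ki-67 antigen of dividing cells, ran from 11.65 over a median of 12.62 to 13.38 in CDS tumors and from 12.13 over 12.59 to 13.07 in ES tumors. The difference was 0.09 ± 0.28 (SE) with a 95% interval of -0.49 to 0.67, and -0.08 after quantile normalization (limma adjusted p = 0.841 and 0.766). Top2a, the topoisomerase that untangles chromosomes, was 12.59 ± 0.63 (SD) over the 6 CDS tumors and 12.82 ± 0.25 over the 6 ES tumors. Its difference was -0.23 ± 0.27 (SE), with an interval of -0.79 to 0.33. For the mitotic kinase Cdk1 the difference was -0.15 (-0.76 to 0.45) and for its cyclin Ccna2 -0.18 (-0.67 to 0.31). These values are those of the brightest probe set of each gene, and none of the 4 intervals reaches a log2 difference of 1 in either direction. The other probe set of Ccna2, with means of 10.01 in CDS and 11.85 in ES tumors, was called lower (-1.84, limma adjusted p = 0.0419). Averaged over both, Ccna2 differed by -1.01 (limma adjusted p = 0.0672).

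Among replication genes, Gins1, a subunit of the helicase complex, was the member called by its brightest probe set. It ran from 5.65 over a median of 9.51 to 10.21 in CDS tumors and from 10.21 over 11.10 to 11.95 in ES tumors, so that the groups met at 10.21. Its difference was -2.11 ± 0.63 (SE, limma adjusted p = 0.0245, quantile -1.96), and the call was lost without ES tumor 41, 49 or 51 (adjusted p = 0.0514 to 0.0608 by limma). Mcm7 differed by -0.90 (quantile -0.88) and passed the adjusted p but not the fold threshold. Another probe set of Mcm7 was called lower (-2.34, limma adjusted p = 0.0099), as was one of Mcm3 (-3.02, limma adjusted p = 0.0412). Averaged over all probe sets, Mcm7 (-1.62) and Mcm3 (-2.12) were called beside Gins1. Mcm2 was 10.80 ± 0.35 (SD) over the 6 CDS tumors and 11.31 ± 0.23 over the 6 ES tumors, a difference of -0.51 ± 0.27 (SE, limma adjusted p = 0.171, interval -1.08 to 0.06, quantile -0.49). Pcna differed by -0.10 ± 0.20 (limma adjusted p = 0.731, interval -0.52 to 0.32). After quantile normalization the Pcna difference was -0.41 with an adjusted p of 0.00552 by limma, under the fold threshold. By their brightest probe sets Rrm2 (0.09) and Tyms (0.03) lay near 0. Rrm1 (0.64, quantile 0.56) and Cdt1 (0.53, quantile 0.35) were higher in CDS tumors by theirs, without a call. Averaged over all probe sets, Rrm2 differed by -0.87, Rrm1 by -0.18, Cdt1 by -0.02 and Tyms by 0.20, also without a call. Chek1, the kinase of the replication checkpoint, did not overlap between the groups (-1.30, quantile -0.83) and was not called on either scale by its brightest probe set. A dimmer one was called lower (-2.17, limma adjusted p = 0.0486), and the mean of all was not (-1.26, limma adjusted p = 0.176).

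Other cell types and RNA quality also differed between these groups. Summed over 8 markers, skeletal muscle ran from 9.47 to 18.38 (log2) in CDS tumors and from 10.75 to 17.82 in ES tumors, with 1 of 8 above the dip in every tumor of each type. Macrophage markers (10 genes) ran from 13.70 to 16.18 and from 14.33 to 15.94, and 3 were above the dip in every CDS tumor and all 10 in every ES tumor. Endothelial markers (8 genes) ran from 12.25 to 13.30 in CDS tumors and from 9.48 to 12.36 in ES tumors, with 2 and 3 of 8 above the dip in every tumor of the type, and with Tek and Tie1 below it in every ES tumor. The 3′ excess of Actb ran from 0.31 to 1.28 in CDS tumors, highest in CDS tumors 5 and 6, and from 0.17 to 0.31 in ES tumors. Keratinocyte markers (7 genes) ran from 5.07 to 8.86 in CDS tumors, with Krt14, Krt15, Dsp and Trp63 below the dip in all. They ran from 8.45 to 14.49 in ES tumors, with Krt10 above the dip in all. The part of these in the lower mitotic signals was not tested.

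eMC CIC-DUX4 against eMC empty showed the members 48 h after transduction. Of the 41 members, 19 had opposite signs as deposited and after quantile normalization, 10 of the replication and 9 of the mitosis class. Tyms was the member called lower on both scales. As deposited, limma called 9 members higher and 3 lower, 4 and 3 in the replication class and 5 and 0 in the mitosis class. Of all genes 46.4% were called higher and 4.62% lower, and the median of all genes was 2.07. After quantile normalization 0 members were called higher and 4 lower, all 4 of the replication class, against 8.13% and 4.81% of all genes. At an unadjusted p under 0.05 by limma on that scale, 16 of 18 replication members were lower and 0 higher, and 11 of 23 mitosis members were higher and 6 lower. Of all genes, 28.1% were lower and 32.1% higher at that threshold. The median of the replication class was -0.52 and that of the mitosis class 0.14 after quantile normalization, against 0.01 over all genes. As deposited they were 0.49 and 0.31. Without eMC empty 7 the deposited counts were 16 higher and 6 lower. Without the arrays of median above 5, and also without those of dip above 7, 5 were higher.

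The sliding clamp Pcna and the enzymes of nucleotide supply, Rrm2 and Tyms, fell as deposited. Pcna read 13.08, 12.88, 13.24 and 13.32 in eMC CIC-DUX4 and 14.72, 14.97, 14.44 and 14.19 in eMC empty. All values with the fusion were below all without it, by -1.45 ± 0.17 (SE, limma adjusted p = 8.5e-05), and by -0.39 after quantile normalization. Rrm2 differed by -1.16 ± 0.16 (limma adjusted p = 0.00026) and by -0.38 after quantile normalization. Without the arrays of dip above 7 it differed by -0.92, under the fold threshold. Rrm1 differed by -0.89 (quantile -0.32) and was not called. Pcna, Rrm1, Rrm2 and Tyms were above the dip in every array that has one. Tyms read 10.43, 10.37, 10.61 and 10.61 in eMC CIC-DUX4 and 11.64, 11.62, 11.73 and 11.64 in eMC empty. It fell by 1.15 ± 0.18 as deposited (limma adjusted p = 0.000571) and by 1.43 after quantile normalization. With the mean of all its probe sets its difference was 0.27 (limma adjusted p = 0.704), so that this call rests on the brightest probe set. The others in that mean were dim, at 2.67 and 3.04 in eMC empty and 4.14 and 3.54 in eMC CIC-DUX4. They were below the dip in all eMC empty arrays.

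Several members of the helicase and its loading turned in direction with the scaling, Mcm5, Cdc6 and Mcm3 among them. Mcm5 read 9.10, 9.03, 8.76 and 8.65 in eMC CIC-DUX4. In eMC empty it read 5.42 and 5.53 in replicates 4 and 5, the arrays of high dip, and 9.15 and 9.71 in replicates 6 and 7. Its deposited difference was 1.43 ± 0.98 (SE) and its quantile difference -1.62 ± 0.13. Cdc6 (1.95, quantile -1.42) and Mcm3 (1.80, quantile -1.33) turned in the same way, while Cdt1 did not (-0.71, quantile -0.07). Without the arrays of dip above 7 the quantile differences were -1.80 for Mcm5, -1.45 for Cdc6 and -1.44 for Mcm3. Mcm2 differed by 0.72 ± 0.64 as deposited (limma adjusted p = 0.325) and by -0.83 after quantile normalization. Mcm4 and Mcm6, above the dip in all arrays that have one, differed by -0.97 and -0.83 as deposited and by -0.41 and -0.31 after quantile normalization.

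**Figure D3:**
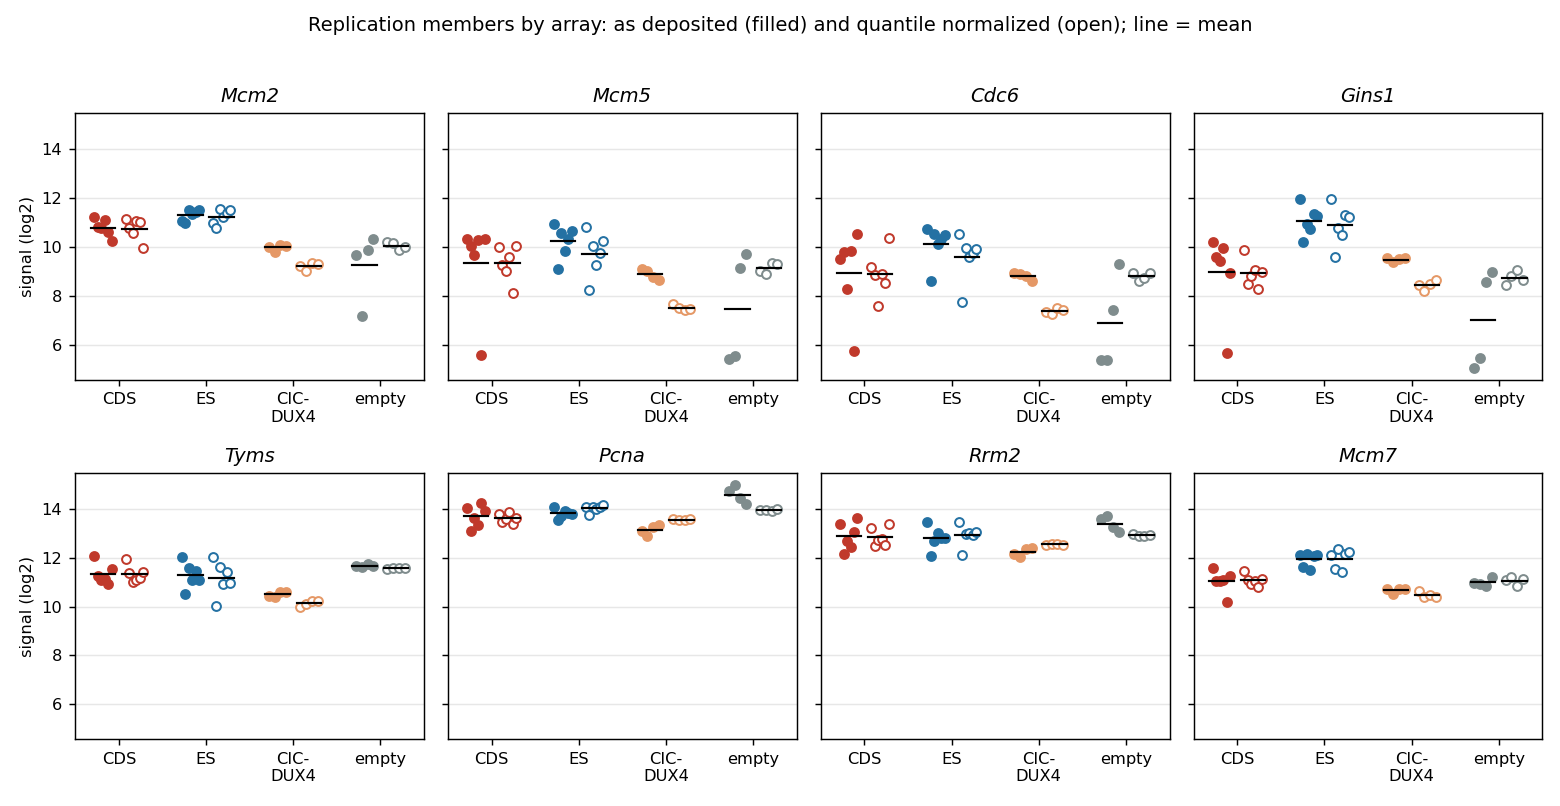
Log2 signal (vertical axis) of 8 replication members in every array of the 4 groups (horizontal axis), as deposited (filled points) and after quantile normalization (open points), with the group mean as a line. For Mcm5 and Cdc6, eMC empty 4 and 5 lie near 5.4 as deposited and beside the other eMC empty arrays after quantile normalization. Tyms is lower in eMC CIC-DUX4 than in eMC empty on both scales.

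The 9 members called higher as deposited were, with their fitted log2 differences, E2f1 (3.51), Cdc45 (2.87), E2f2 (2.63) and Gins1 (2.46) of the replication class and Kif23 (4.35), Kif11 (3.41), Foxm1 (3.28), Plk1 (2.94) and Cenpf (2.83) of the mitosis class. E2f1 read 8.60, 8.47, 8.15 and 8.01 against 4.43, 4.60, 3.81 and 6.35, with a difference of 3.51 ± 0.54 (SE, limma adjusted p = 0.000455) and of -0.28 after quantile normalization. Cdc45 turned to -0.92, E2f2 to -0.45 and Gins1 to -0.28 on that scale. Kif23 read 8.80, 8.52, 8.16 and 7.84 in eMC CIC-DUX4 and 4.21, 4.36, 3.78 and 3.59 in eMC empty, below the dip in all 4. On the deposited scale its signal was at least 2.83-fold higher against the dip (fit 4.35 ± 0.36, SE, limma adjusted p = 1.2e-05). The quantile difference of 0.44 lies under that bound, which therefore does not hold across scalings. Kif11 turned to -0.26, while Foxm1, the transcription factor of mitotic genes, was 0.66, Cenpf 0.63 and Plk1 0.08 after quantile normalization. Foxm1 and E2f2 were below the dip in all 4 eMC empty arrays and too dim with the fusion for a fold to be bounded. Each of these 9 was below the dip in at least 1 eMC empty array, and 0 of the 9 was called higher on the quantile scale. Mki67 differed by -0.21 ± 0.17 (limma adjusted p = 0.292, quantile 0.15) and Top2a by -0.46 ± 0.16 (limma adjusted p = 0.0334, quantile 0.18), and neither reached the fold threshold. With the mean of all its probe sets Top2a differed by 1.43. By a probe set other than the brightest, 6 members not called above were called higher and 2 lower, Ccna2 (-1.03) and Rrm1 (-1.60). By their brightest probe sets, 46.4% of all genes were called higher and 4.62% lower. The share over dimmer probe sets is not given here. These probe sets of the 6 were below the dip in at least 1 eMC empty array, and those of Top2a and Cenpa in all.

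After quantile normalization the arrays within an eMC group lay close together. Pcna, for example, read 13.95, 13.95, 13.93 and 13.97 in eMC empty and 13.58, 13.54, 13.53 and 13.57 in eMC CIC-DUX4. CDS tumors ran from 13.37 to 13.86 and ES tumors from 13.74 to 14.14 on that scale. The eMC comparison has small standard errors there, and differences well under the fold threshold pass the adjusted p.

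CDS tumors against eMC empty set the tumors beside cells without the fusion. Cdc20, Ube2c and Mad2l1, of the anaphase-promoting complex and its checkpoint, were lower in the tumors on both scales. By limma 3 members were called lower and 0 higher as deposited, all 3 of the mitosis class, against 5.81% and 14.6% of all genes. After quantile normalization 12 were called lower (10 mitosis, 2 replication) and 1 higher, against 19.2% and 17.6% of all genes. At an unadjusted p under 0.05 by limma, 10 were lower and 3 higher as deposited, against 10.6% and 26% of all genes. The number called higher was 5 without CDS tumor 5, 1 without CDS tumor 2 and 1 without eMC empty 7, with no share of all genes given for these fits. Cdc20 read 12.20, 12.33, 12.13 and 11.88 in eMC empty, above every CDS tumor (8.05 to 11.32), and differed by -1.85 ± 0.53 (SE, limma adjusted p = 0.0201, quantile -1.46). Ube2c read 13.35, 13.61, 13.20 and 12.99 in eMC empty against 11.19 to 12.56 in CDS tumors. Its difference was -1.49 ± 0.33 (SE, limma adjusted p = 0.00383, quantile -1.03). On the quantile scale without the arrays of dip above 7 Ube2c differed by -0.94, under the fold threshold. Mad2l1 differed by -1.49 ± 0.39 (limma adjusted p = 0.0125, quantile -1.17), also without overlap. The Cdc20 call was lost without eMC empty 4 or 5 (limma adjusted p = 0.061 and 0.0573) and the Mad2l1 call without the arrays of dip above 7 (0.0636). Markers of other cell types also differed here. Endothelial markers ran from 12.25 to 13.30 in CDS tumors and from 5.20 to 5.92 in eMC empty, where all 8 were below the dip. The 3 erythroid markers measured ran from 12.31 to 15.13 and from 4.60 to 4.93, and macrophage markers from 13.70 to 16.18 and from 14.40 to 14.98. Lyz2 alone read 14.25 to 14.97 in eMC empty, where it was the 1 macrophage marker of 10 that always exceeded the dip. Another 6 never exceeded it there. By limma 7 of the 10 were called higher in CDS tumors on both scales, and 0 lower. The part of these cell types in the members' differences was not tested.

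Called lower only after quantile normalization were, among others, Kif20a (-2.85), Kif23 (-2.74), Aurka (-1.54), Bub1 (-1.22) and Ccnb2 (-1.06), whose deposited differences were -2.07, -0.27, -0.86, -1.44 and -1.49. Plk1, Kif11 and E2f1 were 0.72, 1.31 and 0.70 as deposited and turned to -1.28, -1.17 and -1.01. Mki67 was higher in CDS tumors by 0.86 ± 0.34 (SE, limma adjusted p = 0.0832) and by 0.95 ± 0.19 after quantile normalization (limma adjusted p = 0.00148), below the fold threshold on both scales. Top2a differed by -0.06 ± 0.33 (limma adjusted p = 0.891, interval -0.76 to 0.63). In the replication class Mcm2 differed by 1.54 ± 0.58 (limma adjusted p = 0.068, quantile 0.70) and Pcna by -0.88 ± 0.25 (limma adjusted p = 0.0183, quantile -0.34). By a probe set other than the brightest, 3 members not called above were called lower, namely Ccna2 (-2.74), Rrm2 (-2.90) and Rrm1 (-2.44). By their brightest probe sets, 5.81% of all genes were called lower as deposited. E2f2 was the member called higher after quantile normalization (1.15), and it was above the dip in 3 of 6 CDS tumors.

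CDS tumors against eMC CIC-DUX4 compared tumors with cultured cells that had received the same fusion 48 h earlier. Most members did not pass the test as deposited, and the called ones were split by class after quantile normalization. On that scale limma called 6 members higher, all of the replication class, and 7 lower, all of the mitosis class. Of all genes 16.8% were called higher and 20.2% lower. Over both classes together neither share of members exceeded that of all genes, so these numbers do not set the members apart. As deposited only 1 member was called higher and 2 lower, against 5.14% and 12.7% of all genes, and the median of all genes was -0.92. In the replication class the median was 0.19 (quantile 0.58) and in the mitosis class -1.28 (quantile -0.72). The 1 member called higher as deposited became 0 without CDS tumor 1 or 6 or without any 1 of eMC CIC-DUX4 5 to 8, and 2 without CDS tumor 4. The 2 called lower became 1 without eMC CIC-DUX4 5. Another probe set than the brightest was called lower for Cenpe (-3.60) and Cenpf (-4.18). Endothelial markers ran from 6.29 to 10.11 in eMC CIC-DUX4, below all CDS tumors, and keratinocyte markers from 11.80 to 11.96, above all of them. Their part in the differences was not tested.

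The 6 replication members called higher on the quantile scale were Mcm5 (1.82), E2f2 (1.60), Mcm2 (1.52), Cdc6 (1.51), Mcm3 (1.502) and Tyms (1.19). Mcm2 read 10.01, 9.79, 10.09 and 10.04 in eMC CIC-DUX4, below all CDS tumors (10.24 to 11.23). Its deposited difference was 0.81 ± 0.33 (SE, limma adjusted p = 0.0978). Tyms in eMC CIC-DUX4 was likewise below all CDS tumors (10.92 to 12.05), with a deposited difference of 0.82. The deposited differences of Mcm5, Cdc6 and Mcm3 were 0.48, 0.12 and 0.20, and CDS tumor 5 was below the dip for each of these 3. E2f2 was -0.10 as deposited. Averaged over all probe sets, the deposited differences were -1.20 for Mcm3, -0.77 for E2f2, 0.44 for Mcm5, 0.74 for Mcm2 and 0.25 for Tyms. None of these averages was called. Pcna differed by 0.57 ± 0.23 (limma adjusted p = 0.0892, quantile 0.05), while Rrm1 (0.85) and Cdt1 (0.93) passed the adjusted p and not the fold threshold. Averaged over all their probe sets, Rrm1 differed by 0.008 and Cdt1 by 0.51, and neither passed the adjusted p.

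In the mitosis class Kif20a and Kif23 were called lower on both scales. Kif20a read 10.78, 10.56, 10.70 and 10.88 in eMC CIC-DUX4, above all CDS tumors (4.99 to 9.20), a difference of -3.23 ± 0.82 (SE, limma adjusted p = 0.0155, quantile -3.13). The call was lost without eMC CIC-DUX4 5 (limma adjusted p = 0.0535) and without the arrays of median above 5 (0.108). Kif23 differed by -4.61 ± 0.87 (limma adjusted p = 0.00249, quantile -3.18), with 1 of 6 CDS tumors above the dip. Ccnb2 (-1.69), Cdc20 (-1.49), Bub1 (-1.42), Plk1 (-1.36) and Aurka (-1.19) were added on the quantile scale. Their deposited differences were -1.79, -1.43, -1.48, -2.22 and -1.64. Mki67 went the other way. It read 11.62, 11.41, 11.66 and 11.78 in eMC CIC-DUX4 against 11.65 to 13.38 in CDS tumors, a difference of 1.07 ± 0.32 (SE, limma adjusted p = 0.0317, quantile 0.80). This call did not hold without any 1 of the 4 eMC CIC-DUX4 arrays or CDS tumor 1, 3, 5 or 6, the lowest value being 0.93. Top2a differed by 0.40 ± 0.31 (limma adjusted p = 0.364, quantile 0.05).

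ES tumors against eMC empty set the other sarcoma beside the same eMC empty arrays, which the comparisons of both tumor types share. Gins1 and Mcm2 of the helicase, Chek1 of the replication checkpoint and Cenpe and Cenpf of the kinetochore were called higher on both scales. After quantile normalization the share of members called higher was near that of all genes. The number of rises therefore does not set the members apart, and some of these calls depended on the settings given below. By limma 15 members were called higher and 0 lower as deposited, 8 of the replication and 7 of the mitosis class, against 30.1% and 10.9% of all genes. After quantile normalization 7 were higher (4 and 3) and 0 lower, against 17.3% and 18.9%, and 6 were called higher on both scales. At an unadjusted p under 0.05 by limma, 5 members were lower as deposited and 2 after quantile normalization, against 22.4% and 29.6% of all genes. The number called lower was 1 without ES tumor 49 and 1 without eMC empty 7. Without the arrays of dip above 7, 7 members were called higher. The 6 called on both scales were Gins1 (4.05, quantile 2.14), Chek1 (3.28, quantile 1.01), E2f2 (fitted 3.11, quantile 1.47), Mcm2 (2.05 ± 0.51, SE, quantile 1.19), Cenpf (3.58, quantile 1.71) and Cenpe (2.74, quantile 1.12). On the quantile scale without the arrays of dip above 7, Chek1 (0.92), Cenpe (1.101) and E2f2 (1.42) lost the call (limma adjusted p = 0.146, 0.0713 and 0.122). Averaging all probe sets ended the calls of Cenpf (0.997) and E2f2 (2.00). Their dimmer probe sets were each above the dip in 1 ES tumor and in no eMC empty array. For Gins1 eMC empty read 5.06, 5.47, 8.59 and 8.99, all below the lowest ES tumor at 10.21 (limma adjusted p = 0.001). Cdc6 (3.26, quantile 0.78), Kif11 (3.92, quantile 0.89) and Plk1 (2.78, quantile 0.06) were called as deposited only. Cdc45 was 2.71 as deposited and -0.06 after quantile normalization.

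Mki67 was higher in ES tumors by 0.77 ± 0.19 (SE, limma adjusted p = 0.0049), without overlap, and reached the fold threshold after quantile normalization at 1.03 ± 0.16. Top2a differed by 0.17 ± 0.16 (limma adjusted p = 0.392, quantile 0.64). Pcna differed by -0.77 ± 0.16 (limma adjusted p = 0.00183) and by 0.07 after quantile normalization, and Birc5 by -0.93 (quantile -0.55). By a probe set other than the brightest, Rrm1 (-1.43) and Rrm2 (-1.06) were called lower, and Cdt1 (2.203), Cenpa (2.90), Mcm7 (1.23) and Top2a (3.09), not called by the brightest, were called higher. Endothelial markers ran from 9.48 to 12.36 in ES tumors, above all eMC empty arrays. All 10 macrophage markers were above the dip in every ES tumor, while 6 were below it in every eMC empty array. Skeletal muscle markers ran from 10.75 to 17.82 in ES tumors and from 13.23 to 13.39 in eMC empty. The part of these cell types in the differences was not tested. Side by side against eMC empty, Cdc20 was -1.85 in CDS tumors and -0.09 in ES tumors, Ube2c -1.49 and -0.48, and Mad2l1 -1.49 and -0.32. Mki67 was 0.86 and 0.77. The direct comparison of the tumors above is the test of these differences.

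The level of each class was described in every array as the median over its members of the log2 value minus the mean of eMC empty, with no test. After quantile normalization the mitosis class was at -0.72 in CDS tumors (-1.47 to -0.04) and 0.31 in ES tumors (-0.77 to 1.02). The replication class was at -0.06 in CDS tumors (-0.41 to 0.37) and 0.35 in ES tumors (-0.41 to 0.96). In eMC CIC-DUX4 the replication class was at -0.58 (-0.63 to -0.55) and the mitosis class at 0.13 (0.10 to 0.18). ES tumor 41 was the highest tumor in both classes on the quantile scale, and ES tumor 46 was the lowest ES tumor in both. CDS tumor 1 was the highest CDS tumor in both classes, and CDS tumor 2 the lowest in the mitosis class at -1.47, with a replication level of -0.19. The tumor groups overlapped in the mitosis class through ES tumor 46 and in the replication class through ES tumors 46 and 48. As deposited the mitosis class was at -0.47 in CDS tumors and 0.67 in ES tumors, and the replication class at 0.33 and 1.07.

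**Figure D4:**
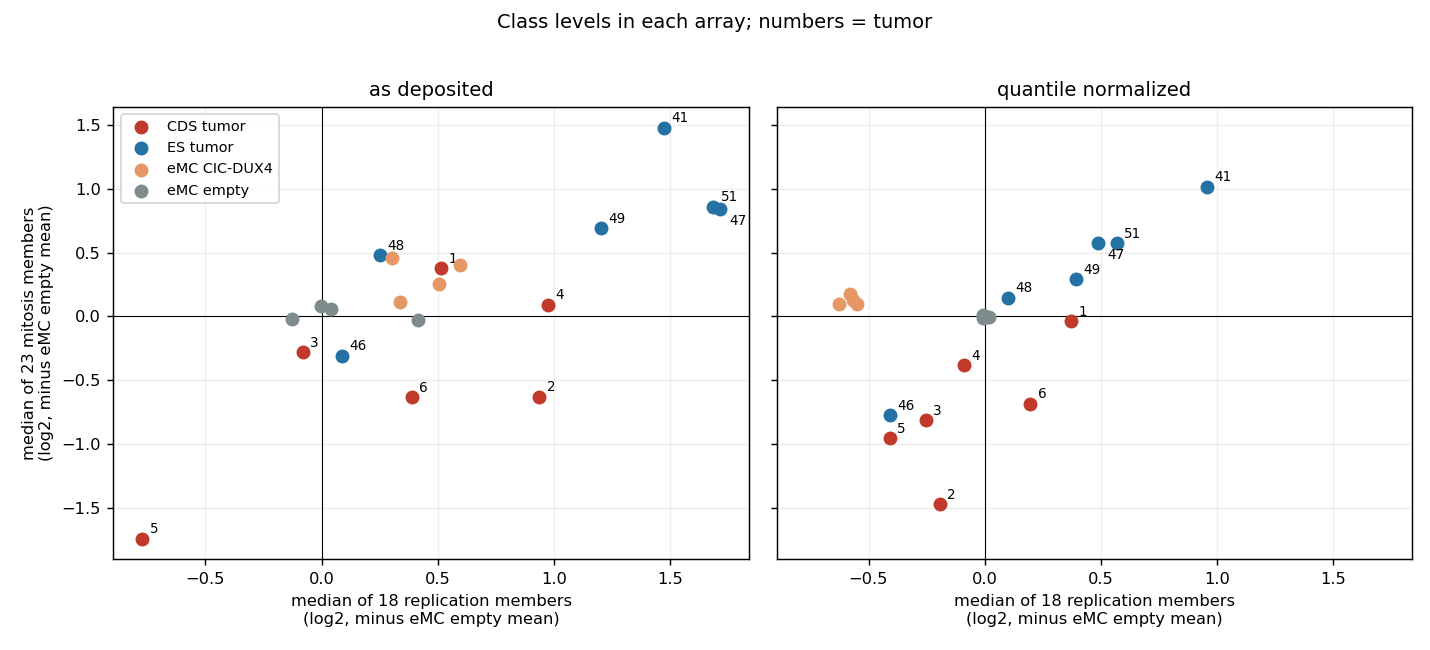
Median log2 level of 18 replication members (horizontal axis) and 23 mitosis members (vertical axis) in each of the 20 arrays, relative to the eMC empty mean of each member, as deposited (left) and after quantile normalization (right). Points are arrays coloured by group, and numbers name the tumors. After quantile normalization the 4 eMC CIC-DUX4 arrays lie at replication levels of -0.63 to -0.55, 5 of the 6 ES tumors lie above 0 in both classes, and all 6 CDS tumors lie below 0 in the mitosis class.

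Other genes of the same processes were taken from lists of 36 replication and 46 mitosis genes, of which 34 and 43 were tested. In CDS against ES tumors limma called 12 of the 43 mitosis genes lower and 0 higher as deposited (16 and 0 after quantile normalization). It called 5 of the 34 replication genes lower and 1 higher (10 and 2). Of all genes 9.58% were called lower and 11.2% higher as deposited, and 16.2% and 16.9% after quantile normalization. The largest falls were in Cdc25b, the phosphatase that activates Cdk1 (-4.10 ± 0.83, SE, quantile -3.25), and Dbf4, the activator of the replication kinase Cdc7 (-3.71, quantile -3.10). Next came Espl1, the protease that separates sister chromatids (-3.65, quantile -2.53), and the kinesin Kif2c (-3.18, quantile -2.25). The medians were -1.43 (quantile -0.86) for the mitosis list and -0.89 (quantile -0.45) for the replication list.

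Against eMC CIC-DUX4, CDS tumors had 4 replication genes of that list higher and 0 lower (13 and 2 after quantile normalization). Of all genes 5.14% were higher and 12.7% lower as deposited, and 16.8% and 20.2% after quantile normalization. The medians of the replication list were -0.33 and, after quantile normalization, 0.75. The replication kinase gene Cdc7 (1.83, quantile 3.50), the thymidine kinase Tk1 (1.62, quantile 1.90) and Timeless (1.55, quantile 2.58) led. In the mitosis list 3 were higher and 4 lower (1 and 14 after quantile normalization), and Kif2c fell most (-3.79, quantile -2.38). Against eMC empty, CDS tumors had 7 replication genes higher and 0 lower (6 and 3) and 3 mitosis genes higher and 2 lower (3 and 13). Of all genes 14.6% were called higher and 5.81% lower as deposited, and 17.6% and 19.2% after quantile normalization. Cdc7 was at least 10.04-fold higher there on the deposited scale (fit 5.72), since no eMC empty array reached the dip for it, and its quantile log2 difference of 3.14 lies under that bound. Anln, a scaffold of cytokinesis, fell by 1.90 (quantile -1.54). In ES tumors against eMC empty 19 replication genes were higher and 0 lower (13 and 0), and 21 mitosis genes higher and 1 lower (7 and 1). Of all genes 30.1% were called higher and 10.9% lower as deposited, and 17.3% and 18.9% after quantile normalization. Bora, an activator of Aurka and Plk1, was at least 10.5-fold higher there on the deposited scale (fit 6.38, quantile 3.90). Between the eMC groups 16 replication genes were called higher with the fusion and 0 lower as deposited (median 1.91), and 0 higher and 4 lower after quantile normalization (median -0.34). Of the mitosis list 20 were called higher and 2 lower as deposited, and 1 higher and 2 lower after quantile normalization, where 46.4% and 4.62%, and then 8.13% and 4.81%, of all genes were called. The 1 was Bora (fit 4.63, quantile 1.07).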

How the data were processed

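The authors deposited log2 signals of 45141 probe sets on 20 arrays, made with MAS5 per the submitters' processing notes; no version is given in the sources used here. They were used as deposited, after adding an offset of 1.42 on the linear scale and taking log2 again. Probe sets above their own array's median in at least 4 of 20 arrays were kept (26895). A gene was represented by its probe set of highest mean signal, which left 12343 genes with 1 symbol. Each comparison was fitted on its 2 groups with limma 3.58.1 (lmFit and eBayes with trend, two-sided, R 4.3.3), with Benjamini-Hochberg adjustment over all genes tested. The fit was tested on simulated data. Quantile-normalized values were fitted in the same way. A lower bound of a fold change was taken against the dip where every array of the lower group was below it.

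Full statistics went to the 3 called members of each class with the largest rise and fall, and to Mki67, Top2a, Pcna and Mcm2. Up to 3 other genes per list were named. Others were named after their values were seen. The members and lists were chosen with earlier results of these data known. The number of arrays limits the precision.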

Additional observations from a re-analysis of the deposited data

Results flagged for a closer look

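Of 172 sets of values, 164 of 1 member in 1 group and 8 of a class median in 1 group, 19 had a highest or lowest array whose gap to the nearest other array took an unusual share of the group's range (past the 95% critical value of Dixon's test). Chance alone gives about 1 in 20. In 11 of the 19, CDS tumor 5, the tumor of highest dip, was far below the other CDS tumors. The shares were 0.914 for Chek1, 0.861 for Mcm5, 0.835 for Bub1b, 0.818 for Ccnb2, 0.816 for Cenpf, 0.780 for Gins2, 0.779 for Mcm3, 0.741 for Cdc20, 0.739 for Bub1, 0.724 for Gins1 and 0.715 for Cenpe. Kif23 stood apart in CDS tumor 4 with a share of 0.780. In ES tumor 46, Top2a (0.716), Cdc6 (0.715), Mcm6 (0.688) and Ccna2 (0.649) stood below the other ES tumors. Mcm7 stood apart in eMC CIC-DUX4 6 (0.898), Top2a in eMC empty 7 (0.910) and Ccnb2 in eMC empty 6 (0.833).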

How the results depend on the processing

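Of single member results under the alternatives run, 4553 kept their direction and side of the threshold, 172 passed it newly, 161 no longer passed it and 34 reversed. The scaling of the arrays mattered most, and its cause was not tested. Between the eMC groups, Mcm3, Mcm5, Cdc45, Gins1, Cdc6, E2f1, E2f2 and Kif11 turned to -1.33, -1.62, -0.92, -0.28, -1.42, -0.28, -0.45 and -0.26 after quantile normalization. With the replicate block as well they were -1.47, -1.65, -1.09, -0.45, -1.40, -0.25, -0.43 and -0.25, and without the arrays of dip over 7 they were -1.44, -1.80, -1.03, -0.40, -1.45, -0.16, -0.50 and -0.14. With the mean of all probe sets Tyms turned to 0.27 and Top2a to 1.43. In CDS tumors against eMC empty, quantile normalization turned E2f1 (-1.01), Plk1 (-1.28, with the replicate block -1.40) and Kif11 (-1.17). In CDS tumors against eMC CIC-DUX4 it turned E2f2 (1.60, without the arrays of dip over 7 1.74), and in ES tumors against eMC empty Cdc45 (-0.057, without those arrays -0.16).

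Counts of members that moved by over 1.5 times were as follows. In eMC CIC-DUX4 against eMC empty (9 higher, 3 lower), the higher count was 0 after quantile normalization, 0 with arrays scaled to the same median, 0 with the replicate block and quantile normalization, 0 with quantile normalization without the arrays of dip over 7, 15 with the mean of probe sets, and 5 without the arrays of median over 5 or of dip over 7. The lower count was 0 with the median scaling, 13 with no minimum fold change, 5 with the replicate block and quantile normalization and 5 with quantile normalization without the arrays of dip over 7. In CDS tumors against eMC empty (0 and 3), the higher count was 1 after quantile normalization, with no trend, without the arrays of median over 5, with quantile normalization without the arrays of dip over 7, and with the replicate block and quantile normalization, and 2 with all 4 groups in 1 fit. The lower count was 12 after quantile normalization, 9 with the block added, 0 with the median scaling, and 5 with the mean of probe sets or no minimum fold. In CDS tumors against eMC CIC-DUX4 (1 and 2), the higher count was 6 after quantile normalization with or without the arrays of dip over 7, 0 with the median scaling, no trend or without the arrays of median over 5, 3 with no minimum fold, 4 with the replicate block and 3 with the block and quantile normalization. The lower count was 7 after quantile normalization with or without the arrays of dip over 7, 1 with the median scaling or without the arrays of median over 5, 5 with all 4 groups in 1 fit, 11 with the replicate block and 8 with the block and quantile normalization. A fit with the replicate block rests on the replicate numbers that both groups hold. Between CDS tumors and eMC CIC-DUX4 these are only 5 and 6. In CDS against ES tumors the 11 became 18 with the median scaling and 6 with no trend. In ES tumors against eMC empty (15 and 0), the higher count was 7 after quantile normalization, 7 without the arrays of dip over 7 and 4 with both, and the lower count was 1 with the mean of probe sets and 4 with no minimum fold.

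Leaving out 1 array at a time, in that order of comparisons, gave 6 to 16 higher and 3 to 6 lower, 0 to 5 and 2 to 4, 0 to 2 and 1 to 3, 0 to 0 and 5 to 13, and 12 to 18 and 0 to 1. The share of all genes is not given for fits without an array, so these changes in count may not be particular to the members. The correlations of the deviations of samples with the same replicate number ran from -0.189 to 0.494 over the 8 pairs and were not over 0.1 in every pair of any comparison, so the numbers were not taken as pairs. The replicate block gave 7 higher and 2 lower between the eMC groups, where Tyms was not called (-1.19, limma adjusted p = 0.0922), and 0 and 4 in CDS tumors against eMC empty, where Ube2c differed by -0.99 with quantile normalization added. No paired analysis was possible for CDS against ES tumors or ES tumors against eMC empty because they share no numbers. The alternatives that leave out the arrays of high median or high dip were chosen after seeing the data. Signals near the dip limit what can be said of dim members such as Foxm1, E2f1, E2f2 and Kif23.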
